A study of Mus musculus with 36 samples.

Results

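The comparison described here is that of bisphenol A (BPA) with vehicle in the epithelium of the fetal mammary gland of ERα(+/+) mice. Its members are the 6 epithelium arrays labelled wild type that were exposed to BPA (3 arrays) or to vehicle (3 arrays), of 36 arrays in the whole series. The BPA group consisted of female C57BL/6 fetuses whose dams carried osmotic pumps releasing 250 ng BPA per kg of body weight per day from embryonic day (E) 8 until harvest at E19. The vehicle group was treated in the same way with the DMSO solvent alone. All fetuses came from matings of ERα(+/−) parents, so that ERα(+/+) and ERα(−/−) fetuses could be littermates, and the 3 fetuses of a group came from 3 independent litters. The whole epithelium of an inguinal gland (gland number 4) was cut out by laser capture and pooled into a tube, and its RNA was amplified before hybridization to an Affymetrix Mouse Genome 430 2.0 array. Within a group, an array is thus a gland of a different fetus and litter. The p-values below rest on the spread between such arrays, in which litter, dissection and amplification cannot be told apart. For comparison, 3 arrays of ERα(+/+) epithelium exposed to the estrogen ethinyl estradiol (EE2, 10 ng per kg per day, the positive control) and the BPA and vehicle arrays of ERα(−/−) epithelium were used.

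BPA is a monomer of polycarbonate plastics and epoxy resins that binds the estrogen receptors ERα and ERβ weakly, and membrane and orphan receptors as well. Estrogen receptors are ligand-activated transcription factors that bind DNA as dimers at a palindromic estrogen response element. The mammary epithelium of the late mouse fetus is a small branching cord that grows out of the bud into the fat pad precursor. At this age the cords are mostly solid and lumens form by cell rearrangement and apoptosis. Wnt ligands, Gata3, Tbx3, Msx2 and parathyroid hormone-related protein are known regulators of bud formation.

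Values are given as deposited signals, which are linear intensities. Changes are log2 differences, BPA minus vehicle, and are given for the signals as deposited or after quantile normalization, as named, which gives every array the same distribution of signals. Both scalings were used because the BPA arrays were brighter overall. The median signal of the 45101 probe sets was 51.1, 48.9 and 29.9 on the BPA arrays, against 36.4, 10.9 and 38.2 on the vehicle arrays. Vehicle replicate 2 was the dimmest, and the range of the BPA arrays overlapped that of the vehicle arrays. On the log2 scale the medians differed by 0.77 (exact permutation test, two-sided p = 0.3, where 3 arrays against 3 cannot give less than 0.1). Without vehicle replicate 2 the difference was 0.18. With 3 arrays a group, the precision of these values is limited by the array number.

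The label of the samples was checked against marker genes. Summed over 38 epithelial markers, the signal was 30770, 44540 and 51670 on the BPA arrays and 40760, 35710 and 41010 on the vehicle arrays, against 6171 to 16080 on the wild-type stroma arrays. The keratins of simple epithelium and Epcam, a cell adhesion protein of epithelia, were bright throughout. Krt8 had signals of 2082, 3330.8 and 4084.6 on the BPA arrays and 1909.5, 2663.3 and 1940.4 on the vehicle arrays. Epcam had 4585.7, 5418.4 and 5183.1 on the BPA arrays and 5286.1, 5261.3 and 2710.5 on the vehicle arrays. The arrays were therefore epithelial by their defining markers, with other cell types present to different degrees.

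Markers of stroma were high on BPA replicate 1 and on vehicle replicate 3. The 11 adipocyte markers measured summed to 46330, 15610 and 9622 on the BPA arrays and to 4079, 4943 and 36900 on the vehicle arrays, where the wild-type stroma arrays had 29570 to 48890. Adipoq, the gene of the adipocyte hormone adiponectin, had signals of 6820.8, 522 and 311.2 on the BPA arrays and 105.4, 81.8 and 4751.7 on the vehicle arrays. The 24 endothelial markers showed the same arrays high, with 8450, 1187 and 1065 on the BPA arrays and 732, 432 and 6856 on the vehicle arrays. Fibroblast markers summed to 66020, 35050 and 33220 on the BPA arrays and to 27930, 20570 and 66890 on the vehicle arrays. Vehicle replicate 3 alone also carried keratinised epidermis markers, with a sum of 16220 against 445 to 1120 on the other 5 arrays. Vehicle replicate 1 was the highest in skeletal muscle markers, at 3429 against 238 to 934. Values are therefore also given without BPA replicate 1 and vehicle replicate 3, a choice made after these values were seen, and the part of these cells in the results was not tested. In tissue of this kind, fewer cells of a type and less RNA per cell cannot be told apart.

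**Figure D1:**
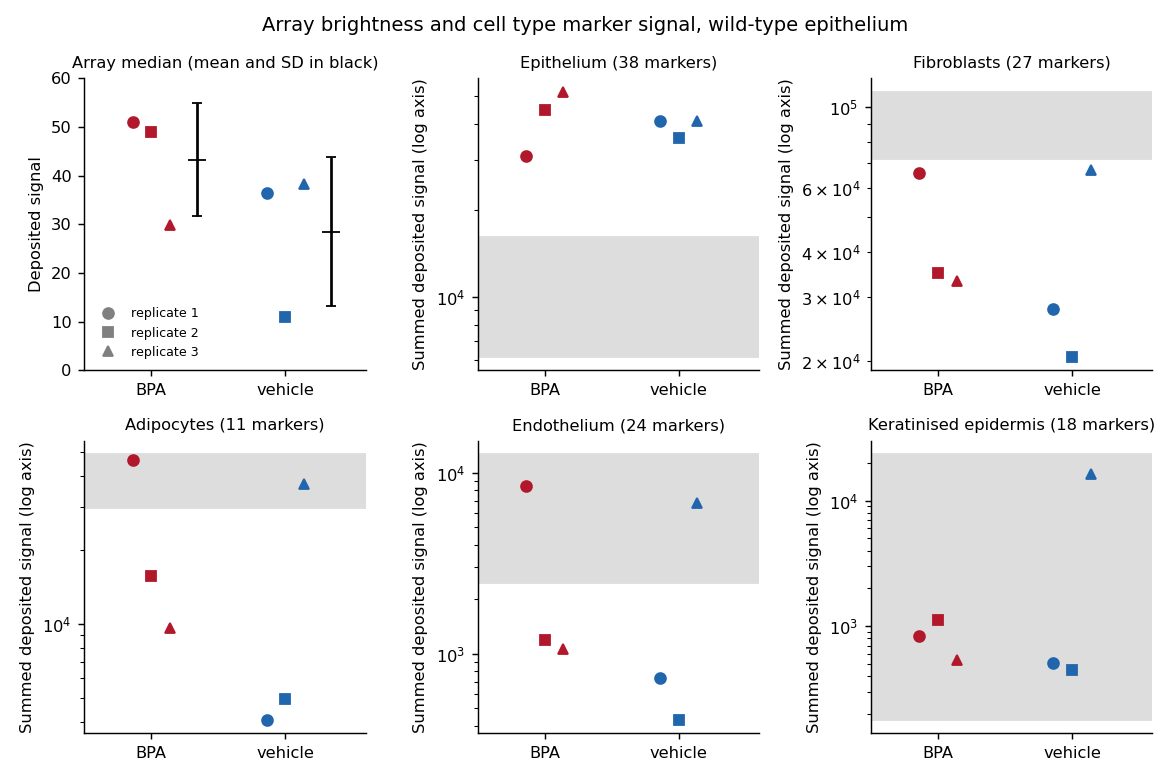
Median deposited signal of each array (first panel, with mean and SD in black) and summed deposited signal of marker lists (log axis) on the 3 BPA and 3 vehicle arrays of wild-type epithelium; the grey bands give the range of the wild-type stroma arrays. BPA replicate 1 and vehicle replicate 3 reach the adipocyte level of stroma, at 46330 and 36900, and vehicle replicate 2 has the lowest array median, at 10.9.

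No probe set differed between BPA and vehicle at an adjusted p under 0.05 on either scaling (limma). The smallest adjusted p was 0.222 as deposited and 0.124 after quantile normalization. At an unadjusted p under 0.05, 3539 probe sets (7.85%) were higher and 267 (0.592%) were lower under BPA in the signals as deposited. After quantile normalization the numbers were nearly equal, with 1343 higher (2.98%) and 1346 lower (2.98%). The groups did not overlap, with BPA higher, in 10.1% of probe sets as deposited and in 4.21% after quantile normalization, and with BPA lower in 1.15% and 4.8%. The methods' t-test at an unadjusted p under 0.05 gave 1169 higher and 169 lower as deposited and 562 higher and 663 lower after quantile normalization, and none after Benjamini-Hochberg adjustment. Quantile normalization by its construction brings the change of all probe sets near 0. The median change of all probe sets was 0.59 as deposited, with 75.8% above 0, and −0.01 after quantile normalization, with 49.5% above 0. All statements on single genes below hence rest on unadjusted p-values, and none passed the adjustment over all probe sets with all 6 arrays.

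**Figure D2:**
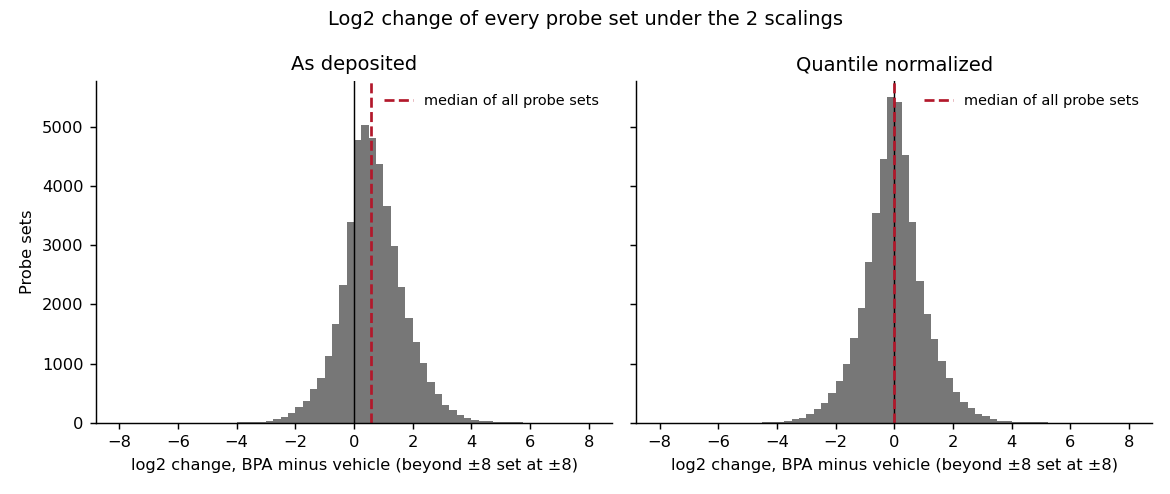
Log2 change, BPA minus vehicle, of all 45101 probe sets as deposited (left) and after quantile normalization (right); bars count probe sets and the dashed line is the median. The median lies at 0.59 as deposited and at −0.01 after quantile normalization.

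Genes that restrain apoptosis were examined first, since lumens form in part by cell death. Of 24 measured inhibitors of apoptosis, 20 had a positive change as deposited (median 0.72) and 16 after quantile normalization (median 0.23), where 76.0% and 49.2% of all genes were above 0, with medians of 0.55 and −0.01. At an unadjusted p under 0.05, 3 were higher and none lower as deposited, and 1 was higher and none lower after quantile normalization (background over all genes 7.2% higher and 0.638% lower as deposited, 2.69% higher and 2.85% lower after quantile normalization). Without vehicle replicate 2 the medians were 0.04 and −0.05. Without that array the medians of all genes were 0.14 and 0.00, so that the list lay above all genes only with vehicle replicate 2 included.

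The counts of the list were 1 higher and none lower on each scaling without vehicle replicate 2, where 2.71% of all genes were higher and 1.09% lower as deposited and 2.01% higher and 1.76% lower after quantile normalization. Without BPA replicate 1 and vehicle replicate 3 they were 3 higher as deposited and none after quantile normalization, where all genes had 10.1% higher and 0.715% lower as deposited and 4.05% higher and 3.61% lower after quantile normalization.

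Birc2, which encodes the inhibitor of apoptosis protein cIAP1, had signals of 334.6, 309.5 and 340.5 on the BPA arrays and 177.8, 38.4 and 109.5 on the vehicle arrays. All 3 BPA arrays were above all 3 vehicle arrays and close to each other (such separation, with BPA higher, occurred in 9.97% of all genes as deposited and in 4.02% after quantile normalization), with means of 328.2 ± 16.46 under BPA and 108.6 ± 69.7 under vehicle (SD, n = 3 each). Its log2 change was 1.85 (SE 0.57, unadjusted p = 0.0053, adjusted p = 0.512) as deposited and 1.15 (SE 0.42, unadjusted p = 0.0162, adjusted p = 0.789) after quantile normalization. Without vehicle replicate 2 it was 1.23 and 1.11. Syvn1, an E3 ubiquitin ligase of endoplasmic reticulum-associated degradation, had 222.4, 234.3 and 133.1 under BPA and 85.5, 59 and 70.4 under vehicle, without overlap of the groups as deposited but with overlap after quantile normalization. Its change was 1.43 (unadjusted p = 0.0391, adjusted p = 0.576) as deposited and 0.79 (unadjusted p = 0.227, adjusted p = 0.901) after quantile normalization. Abl1, a tyrosine kinase with roles in survival and in DNA damage signalling, had 228.3, 361.6 and 361.7 under BPA and 139.6, 123.7 and 175 under vehicle. Its groups likewise did not overlap as deposited but did after quantile normalization, and its change was 1.10 (SE 0.64, adjusted p = 0.62) as deposited and 0.58 (SE 0.56, adjusted p = 0.921) after quantile normalization. Of the 2 other probe sets of Abl1 and the 1 other of Syvn1, none had the same sign on both scalings. Birc2 had no other probe set. Aven, an inhibitor of caspase activation, had a change of 1.19 (adjusted p = 0.567) as deposited and 0.47 (adjusted p = 0.906) after quantile normalization.

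The genes that promote apoptosis were examined in the same way, and 28 of the 34 listed were measured. Of these, 22 had a positive change as deposited (median 0.52) and 14 after quantile normalization (median 0.00), close to all genes. Tradd and Aifm1 were higher as deposited and Bbc3 was lower after quantile normalization, each at an unadjusted p under 0.05. Of all genes, 7.2% were higher as deposited and 2.85% lower after quantile normalization at that p, so these calls were near the background. Bbc3, which encodes the BH3-only protein PUMA, had signals of 1.5, 6.9 and 9 on the BPA arrays and 42.1, 5.1 and 37.1 on the vehicle arrays. Vehicle replicate 2 lay within the BPA range and all values were dim, with a change of −2.14 (adjusted p = 0.617) as deposited and −2.74 (SE 1.13, unadjusted p = 0.0283, adjusted p = 0.813) after quantile normalization. Tradd, an adaptor of the tumor necrosis factor receptor, had 122, 162.2 and 164.2 under BPA and 60.6, 21.8 and 124.9 under vehicle. Aifm1, a mitochondrial flavoprotein released in caspase-independent death, had 1133.1, 594.7 and 793.2 under BPA and 514.4, 131.6 and 448.1 under vehicle. Its groups did not overlap as deposited, a separation found with BPA higher in 9.97% of all genes (change 1.38, adjusted p = 0.557 as deposited, and 0.87, adjusted p = 0.845 after quantile normalization).

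**Figure D3:**
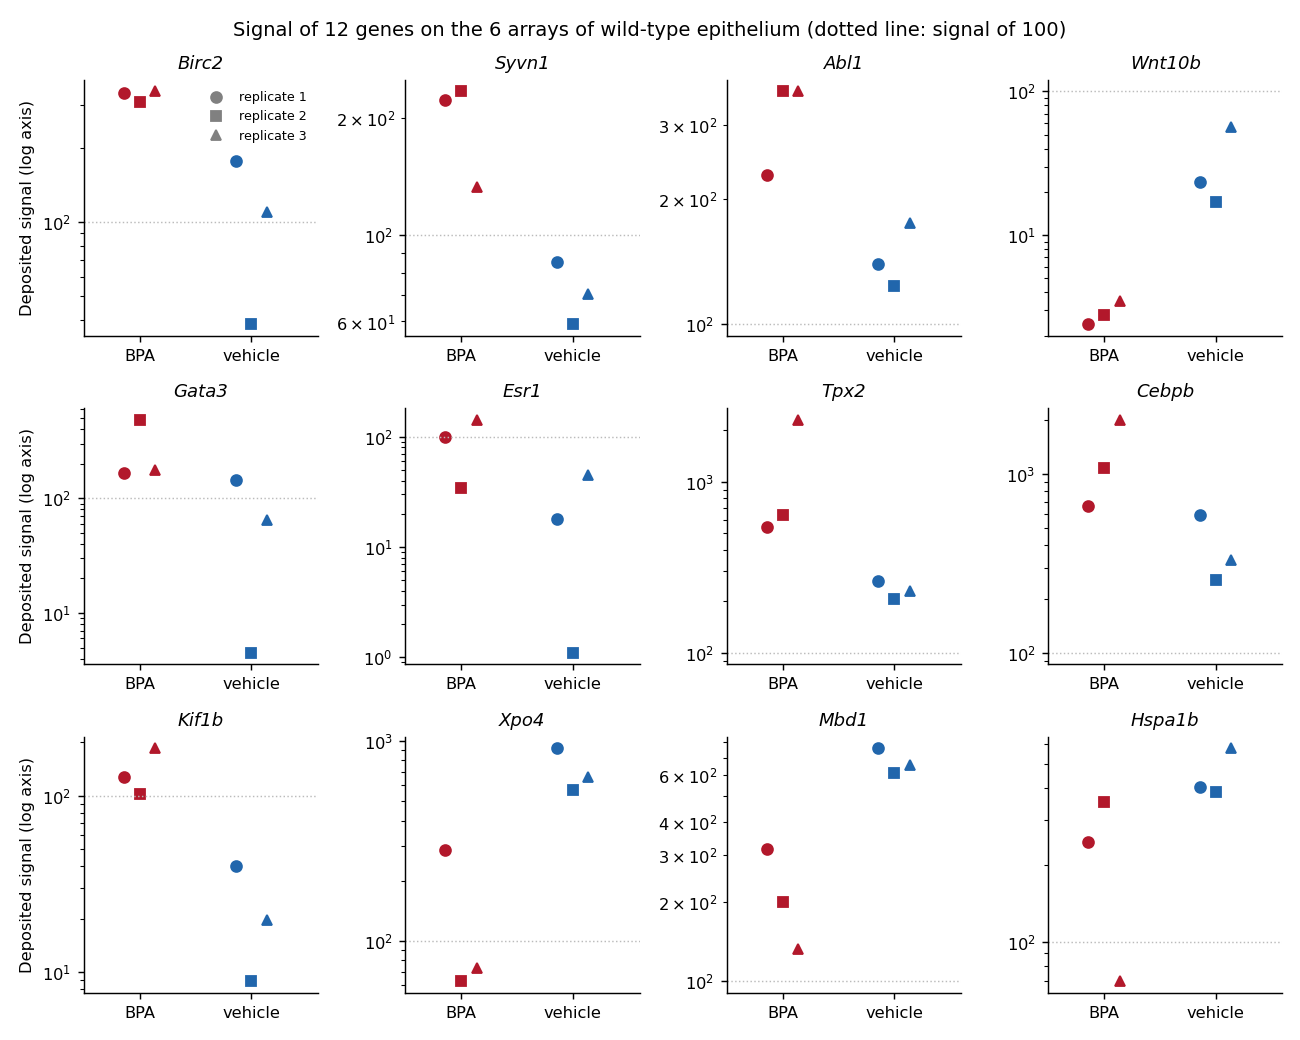
Deposited signal (log axis) of 12 genes on the 3 BPA and 3 vehicle arrays of wild-type epithelium, with a marker shape for each replicate and a dotted line at a signal of 100. All 3 BPA arrays lie above the vehicle arrays for Birc2 and all 3 lie below them for Wnt10b, where every signal is under 100.

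Among the regulators of the mammary bud, a gene was lower and another higher at an unadjusted p under 0.05 on both scalings, of 35 measured (background over all genes 7.2% higher and 0.638% lower as deposited, 2.69% and 2.85% after quantile normalization). The list as a whole followed all genes, with a median change of 0.43 as deposited and 0.04 after quantile normalization. Wnt10b, a Wnt ligand expressed in the mammary line and bud of mouse embryos, had signals of 2.4, 2.8 and 3.5 on the BPA arrays and 23.5, 17 and 56.3 on the vehicle arrays. The BPA arrays were all below the vehicle arrays, as they were in 1.17% of all genes as deposited and in 4.89% after quantile normalization, and all 6 values were dim, with means of 2.9 ± 0.557 under BPA and 32.27 ± 21.07 under vehicle (SD, n = 3 each). Its change was −3.30 (SE 0.79, unadjusted p = 0.000779, adjusted p = 0.395) as deposited and −3.97 (SE 0.77, unadjusted p = 0.000108, adjusted p = 0.401) after quantile normalization. With 16 added to every signal before taking logs the change was −1.27 after quantile normalization, since both groups were dim.

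Gata3, a transcription factor of the luminal lineage, had signals of 166.2, 483.2 and 175.4 on the BPA arrays and 145.3, 4.5 and 65.3 on the vehicle arrays. The groups did not overlap as deposited, a separation found with BPA higher in 9.97% of all genes, but they did after quantile normalization. Vehicle replicate 1 came near the lowest BPA array. Its change was 2.79 (SE 1.02, unadjusted p = 0.0151, adjusted p = 0.545) as deposited and 2.15 (SE 0.81, unadjusted p = 0.0177, adjusted p = 0.791) after quantile normalization. Without vehicle replicate 2 the change was 1.31 and 1.20.

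The promoters of Wnt10b, Gata3 and Birc2 are shown because they are the bud regulators and the apoptosis inhibitor with an unadjusted p under 0.05 on both scalings, in a study that asks about estrogen receptor action. Each window holds 250 bases before and 50 after the gene's start (RefSeq, GRCm38.p6, minus strand of chr15:98778101-98778400, chr2:9878551-9878850 and chr9:7837008-7837307, of which the last is the first of 2 windows listed for Birc2), and capitals mark GGTCA, a single arm of the estrogen response element.

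Wnt10b: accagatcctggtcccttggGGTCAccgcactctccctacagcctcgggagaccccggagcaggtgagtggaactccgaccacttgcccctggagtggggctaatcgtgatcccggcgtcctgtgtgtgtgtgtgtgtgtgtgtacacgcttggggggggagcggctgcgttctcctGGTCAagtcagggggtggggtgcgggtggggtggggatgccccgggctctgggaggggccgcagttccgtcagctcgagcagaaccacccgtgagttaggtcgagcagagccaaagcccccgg

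Gata3: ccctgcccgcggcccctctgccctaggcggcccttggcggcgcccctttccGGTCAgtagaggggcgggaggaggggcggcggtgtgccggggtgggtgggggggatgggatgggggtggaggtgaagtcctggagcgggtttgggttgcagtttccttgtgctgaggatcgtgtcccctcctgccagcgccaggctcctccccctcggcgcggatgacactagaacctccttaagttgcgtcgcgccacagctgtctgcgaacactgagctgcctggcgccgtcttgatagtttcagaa

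Birc2: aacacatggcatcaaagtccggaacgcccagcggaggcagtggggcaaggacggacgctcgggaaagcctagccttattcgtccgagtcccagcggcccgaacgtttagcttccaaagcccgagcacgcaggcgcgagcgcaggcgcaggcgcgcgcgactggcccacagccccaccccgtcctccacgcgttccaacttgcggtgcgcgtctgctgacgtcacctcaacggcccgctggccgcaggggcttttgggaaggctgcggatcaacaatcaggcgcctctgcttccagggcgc

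The window of Wnt10b held 2 matches of GGTCA, at −230 and −73 from the start, that of Gata3 held 1, at −199, and that of Birc2 held none. GGTCA was searched on both strands and occurred in 40.5% of 32851 promoter windows of this length. The full palindrome, GGTCA and TGACC with 3 bases of any kind between them, contains it and occurred in 0.07% of windows and in none of these 3. A match is a description of the letters only.

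The median change of the estrogen-responsive genes was below that of all genes on both scalings. Of 29 measured, 22 had a positive change as deposited (median 0.37, against 0.55 of all genes) and 11 after quantile normalization (median −0.23, against −0.01). At an unadjusted p under 0.05, 1 was higher and 1 lower as deposited, and none was higher and 1 lower after quantile normalization (all genes 7.2% and 0.638% as deposited, 2.69% and 2.85% after quantile normalization). Ramp3, a receptor activity-modifying protein, was the lower gene on both scalings, with signals of 11.8, 2.6 and 1.7 on the BPA arrays and 21.2, 37.9 and 8.9 on the vehicle arrays. Its signals were dim and overlapped as deposited, with a change of −2.37 (SE 0.79, unadjusted p = 0.00871, adjusted p = 0.523), and of −3.13 (SE 0.86, unadjusted p = 0.00233, adjusted p = 0.671) after quantile normalization. Stc2, which encodes the secreted glycoprotein stanniocalcin 2, had 762, 637.4 and 709.9 under BPA and 705.1, 78.6 and 151.6 under vehicle. Vehicle replicate 1 was at the BPA level, and the change was 1.79 (adjusted p = 0.567) as deposited and 1.21 (adjusted p = 0.836) after quantile normalization.

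Of 14 receptors reported to bind BPA or estrogens that were measured, 8 had a signal of at least 100. Esr1, the gene of ERα, had signals of 99, 34.4 and 142 on the BPA arrays and 17.9, 1.1 and 44.8 on the vehicle arrays, with overlap of the groups. Its change was 3.03 (SE 1.13, unadjusted p = 0.0168, adjusted p = 0.554) as deposited and 2.34 (SE 1.01, unadjusted p = 0.036, adjusted p = 0.814) after quantile normalization. Without vehicle replicate 2 it was 1.47 and 1.22. In ERα(−/−) epithelium Esr1 had 31.7, 44.1 and 100.2 under BPA and 13.3, 2.9 and 1.6 under vehicle. Whether its probe set lies in the deleted part is not given in the sources used here, so these signals do not check the genotype.

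Esr2, the gene of ERβ, had 5.2, 10.6 and 3.2 under BPA and 22, 18.8 and 9.2 under vehicle, and its change was −1.48 (adjusted p = 0.642) as deposited and −2.29 (unadjusted p = 0.0236, adjusted p = 0.805) after quantile normalization. The membrane estrogen receptor Gper1 had 102.5, 35.9 and 48 under BPA and 42.2, 79.2 and 222.7 under vehicle (change −0.69, adjusted p = 0.766 as deposited, and −1.31, adjusted p = 0.85 after quantile normalization). Esrrg, the orphan receptor that binds BPA strongly in vitro, had 106.5, 20.6 and 14 under BPA and 86.6, 0.5 and 62.4 under vehicle, with a change of 1.17 (SE 1.86) as deposited and 0.67 (SE 1.70) after quantile normalization. The glucocorticoid receptor Nr3c1 was the brightest of these, with 804.9, 465.8 and 322.3 under BPA and 234.6, 389.7 and 530.3 under vehicle. It and the thyroid hormone receptors Thra and Thrb had changes between 0.29 and 0.78 as deposited and between −0.10 and 0.12 after quantile normalization. The direction of Esrrg, Nr3c1, Thra and Thrb turned with the scaling or with the array left out.

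Growth factor receptors and ligands of the ERBB and Met families act in bud outgrowth and branching. Of 23 measured, 2 were higher at an unadjusted p under 0.05 as deposited (Egf and Nrg1) and 1 after quantile normalization (Egf), none was lower, and the medians were 0.55 and −0.06. Over all genes 7.2% were higher as deposited and 2.69% after quantile normalization. Nrg1, a ligand of ERBB receptors, had 77.8, 184.6 and 165.4 under BPA and 87.2, 26.1 and 46.9 under vehicle, where BPA replicate 1 lay within the vehicle range (change 1.49 as deposited, adjusted p = 0.557, and 0.68 after quantile normalization, adjusted p = 0.899). Egf was dim, with 36, 17 and 14.3 under BPA and 2.8, 0.6 and 25.6 under vehicle. Met, the receptor of hepatocyte growth factor, had 636, 638.8 and 699.7 under BPA and 572.9, 221.3 and 344.1 under vehicle, without overlap as deposited and with overlap after quantile normalization. The change of Met was 0.90 (SE 0.66, adjusted p = 0.678) as deposited and 0.47 (SE 0.56, adjusted p = 0.94) after quantile normalization.

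Genes of cell polarity and lumen formation gave no evidence of a difference at this number of arrays. Of 35 measured, 1 (Llgl2, a basolateral polarity protein) was higher at an unadjusted p under 0.05 as deposited and none after quantile normalization. Over all genes 7.2% were higher as deposited and 2.69% after quantile normalization. The list medians were 0.49 and −0.03 (all genes 0.55 and −0.01). Llgl2 had 32.3, 63 and 37.6 under BPA and 33, 16.6 and 7.9 under vehicle, with a change of 1.38 (adjusted p = 0.585) as deposited and 0.55 (adjusted p = 0.948) after quantile normalization.

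Of 36 proliferation genes, 3 were higher at an unadjusted p under 0.05 as deposited and 1 after quantile normalization, and none was lower, with medians of 0.28 and 0.02. These shares were near those of all genes, 7.2% and 2.69%. Tpx2, which encodes a spindle assembly factor that activates Aurora A, had signals of 545.6, 636.3 and 2303.8 on the BPA arrays and 263.1, 207.5 and 230.6 on the vehicle arrays. All BPA arrays were above all vehicle arrays, and BPA replicate 3 was far above the others. Its change was 2.00 (SE 0.56, unadjusted p = 0.00279, adjusted p = 0.443) as deposited and 1.55 (SE 0.53, unadjusted p = 0.00981, adjusted p = 0.75) after quantile normalization, and 2 of its 3 other probe sets had the same sign on both scalings. The spindle checkpoint kinase Ttk had 296.7, 416 and 629.5 under BPA and 214.7, 60.9 and 237.7 under vehicle (change 1.55, adjusted p = 0.567 as deposited, and 0.90, adjusted p = 0.85 after quantile normalization). The checkpoint kinase Bub1b had 742.5, 501 and 802.1 under BPA and 497.7, 96.3 and 263.5 under vehicle (change 1.52, adjusted p = 0.556 as deposited, and 0.95, adjusted p = 0.836 after quantile normalization).

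Matrix and adhesion genes were read with the fibroblast signal of BPA replicate 1 and vehicle replicate 3 in view. Of 30 focal adhesion genes, 1 was higher and none lower as deposited, and 1 was higher and 1 lower after quantile normalization, at an unadjusted p under 0.05. Of all genes, 7.2% were higher and 0.638% lower as deposited and 2.69% higher and 2.85% lower after quantile normalization. The list median was 0.37 as deposited and −0.01 after quantile normalization. Without BPA replicate 1 and vehicle replicate 3 it was 0.53 and −0.09. Vasp, a regulator of actin filament growth, had 670.4, 615.5 and 523.8 under BPA and 465.9, 57.6 and 301.8 under vehicle (change 1.58, adjusted p = 0.567 as deposited, and 0.94, adjusted p = 0.835 after quantile normalization, which was 0.57 without vehicle replicate 2). Bcar1, the scaffold p130Cas, had 646.3, 501.1 and 382.9 under BPA and 664.8, 1968.9 and 821.3 under vehicle (change −1.04, adjusted p = 0.635 as deposited, and −1.23, adjusted p = 0.835 after quantile normalization, which was −0.65 without vehicle replicate 2). In both genes vehicle replicate 2 lay farthest from the BPA arrays. Zyx, the gene of the focal adhesion protein zyxin, had 869.6, 952.6 and 730.3 under BPA and 743.5, 1838.1 and 1128 under vehicle, with a change of −0.45 (adjusted p = 0.772) as deposited and −0.64 (adjusted p = 0.891) after quantile normalization. Tgm2, a crosslinking transglutaminase, had 960.8, 1086.8 and 409.5 under BPA and 459.7, 475.1 and 100.1 under vehicle, with a change of 1.43 (unadjusted p = 0.0462, adjusted p = 0.586) as deposited and 1.15 (adjusted p = 0.865) after quantile normalization. Of 23 basement membrane genes, Col4a2, a chain of type IV collagen, was higher at an unadjusted p under 0.05 as deposited (7.2% of all genes), and none after quantile normalization. Their median was 0.56 as deposited and 0.23 after quantile normalization (all genes 0.55 and −0.01). Without vehicle replicate 2 it was 0.22 and 0.095. Without BPA replicate 1 and vehicle replicate 3 it was 1.02 and 0.28 (all genes 0.69 and −0.02). With those arrays left out, 4 were higher at that p as deposited (10.1% of all genes) and none after quantile normalization.

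Adipogenesis genes had the highest median of the 16 pathway lists, with 33 of 36 above 0 as deposited (median 1.23) and 32 after quantile normalization (median 0.66). The higher genes at an unadjusted p under 0.05 were Cebpb, Dgat2, Nr1h3 and Gpam as deposited and Gpam after quantile normalization, and none was lower. Over all genes 7.2% were higher as deposited and 2.69% after quantile normalization. The summed adipocyte markers given above were high on BPA replicate 1 and vehicle replicate 3 and higher on BPA replicates 2 and 3 than on vehicle replicates 1 and 2, and all 11 of them had a positive change as deposited. Without BPA replicate 1 and vehicle replicate 3 the median of the adipogenesis list was 1.64 as deposited and 0.86 after quantile normalization, with 8 and 1 genes higher at an unadjusted p under 0.05 (10.1% and 4.05% of all genes). It was 0.28 and 0.21 without vehicle replicate 2, where no gene of the list was higher at that p on either scaling. Gpam, which encodes an enzyme of triglyceride synthesis, had 1607, 857 and 266.6 under BPA and 316.1, 30.2 and 581.2 under vehicle, with overlap of the groups (change 2.02, adjusted p = 0.576 as deposited, and 1.35, adjusted p = 0.835 after quantile normalization). Cebpb, an early transcription factor of adipogenesis, had 666.6, 1080.9 and 2010.3 under BPA and 589.8, 255.2 and 330.5 under vehicle. Its BPA arrays were all above the vehicle arrays as deposited (change 1.62, adjusted p = 0.563 as deposited, and 1.20, adjusted p = 0.835 after quantile normalization). The part of adipocytes in these values was not tested.

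Immediate early and stress genes had 3 lower members and 1 higher member of 30 at an unadjusted p under 0.05 after quantile normalization, where 2.85% of all genes were lower and 2.69% higher, and 2 higher and none lower as deposited (7.2% and 0.638% of all genes). Without vehicle replicate 2, 1 was lower and none higher after quantile normalization (1.76% and 2.01% of all genes). Hspa1b, an inducible heat shock protein, had 246.7, 355 and 69.8 under BPA and 406.3, 387.3 and 574.9 under vehicle, without overlap (change −1.30, adjusted p = 0.601 as deposited, and −1.60, SE 0.60, adjusted p = 0.79 after quantile normalization). The stress-inducible transcription factor Atf3 had 37.4, 33.6 and 23.7 under BPA and 60.5, 86.8 and 85 under vehicle, also without overlap (change −1.30, adjusted p = 0.68 as deposited, and −1.88, adjusted p = 0.835 after quantile normalization). Gadd45a, a growth arrest gene, had 103.2, 69.4 and 21 under BPA and 334.5, 179.8 and 39.9 under vehicle, and its groups overlapped (change −1.33, adjusted p = 0.61 as deposited, and −1.84, adjusted p = 0.813 after quantile normalization). The antiproliferative gene Btg2 went the other way, with 147.6, 76.8 and 146.9 under BPA and 48.3, 1.2 and 70.2 under vehicle (change 2.89, adjusted p = 0.567 as deposited, and 2.23, adjusted p = 0.821 after quantile normalization).

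As deposited, 34 of 35 ribosomal protein genes had a positive change (median 0.20), and in 11 of them all BPA arrays were above all vehicle arrays, a separation found in 9.97% of all genes. After quantile normalization 25 of the 35 had a positive change (median 0.07), with 3 so separated, against 4.02% of all genes. Oxidative phosphorylation genes had 44 of 52 above 0 as deposited and 38 after quantile normalization. Of all genes, 76.0% were above 0 as deposited and 49.2% after quantile normalization. As deposited the medians of the ribosomal and oxidative phosphorylation lists, 0.20 and 0.36, were below the 0.55 of all genes. After quantile normalization, none of 35 ribosomal protein genes, none of 52 oxidative phosphorylation genes and none of 18 cholesterol synthesis genes had an unadjusted p under 0.05, and 1 of 39 splicing factors did (Hnrnpl, higher). Their medians were 0.07, 0.16, −0.19 and 0.03, in that order. Over the 672 genes of all 26 lists with markers included, 13 were higher (1.93%) and 14 lower (2.08%) after quantile normalization, against 2.69% and 2.85% of all genes. As deposited the shares were 5.06% higher and 0.595% lower, against 7.2% and 0.638%. The lists together thus held no larger share than the array as a whole.

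**Figure D4:**
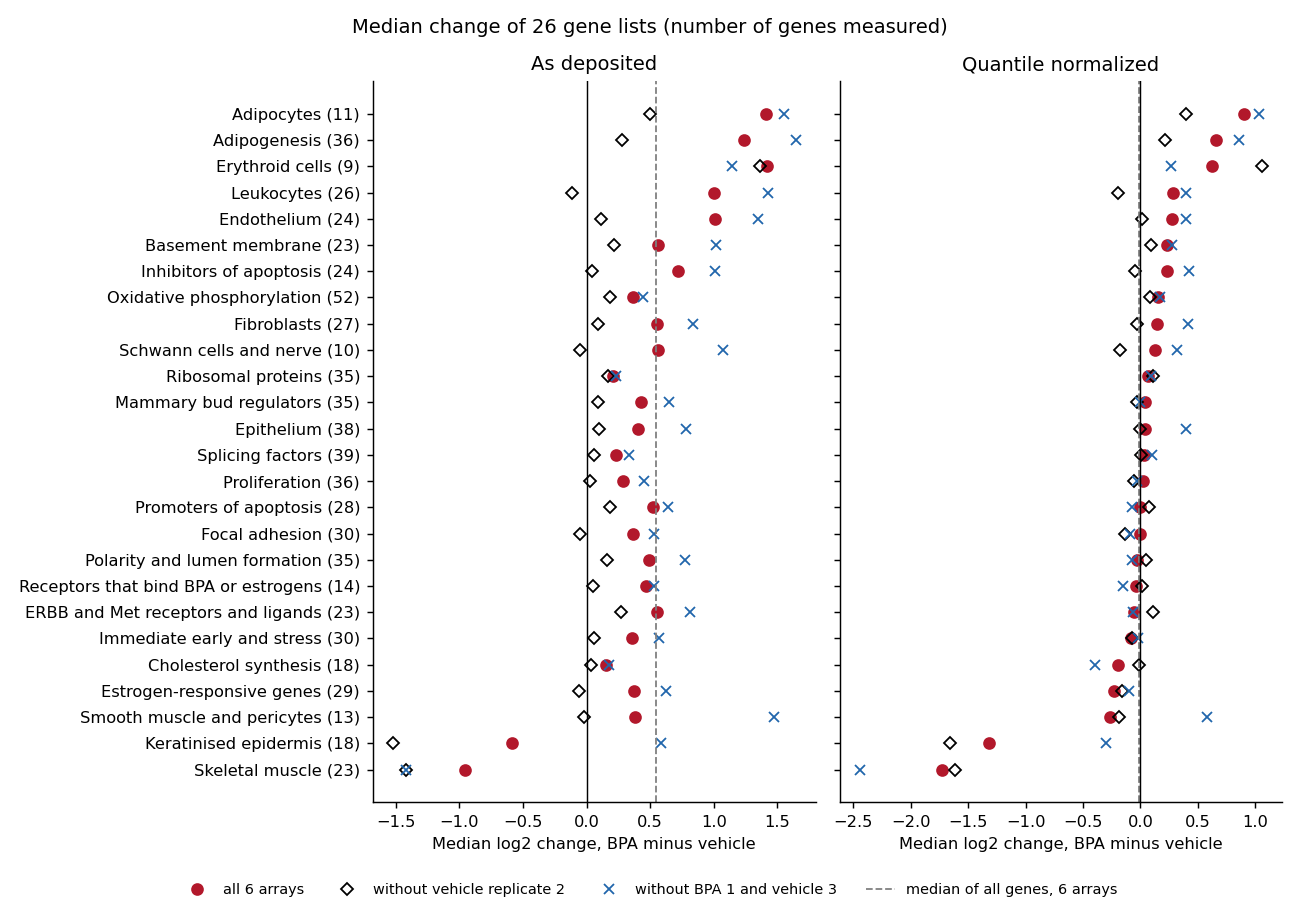
Median log2 change, BPA minus vehicle, of the 26 gene lists as deposited (left) and after quantile normalization (right), with all 6 arrays, without vehicle replicate 2, and without BPA replicate 1 and vehicle replicate 3; the number of genes measured stands beside each name and the dashed line is the median of all genes. The adipogenesis median is 1.23 as deposited with all 6 arrays and 0.28 without vehicle replicate 2.

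Genes outside the lists were named by their rank among the probe sets with groups that did not overlap, an unadjusted p under 0.05 on both scalings and a mean signal of at least 100 in the higher group. These were 327 probe sets (0.725%) higher and 21 (0.0466%) lower under BPA, or 275 genes higher and 15 lower. Because this rule used the contrast itself, the values that follow are a description. In 255 of the 275 higher genes (92.7%) vehicle replicate 2 was the lowest vehicle array, as it was in 64.9% of all probe sets. In 110 of them the vehicle mean was under 50. Among these were all 12 higher genes named below, with vehicle means from 1.067 (Hpca) to 43.33 (Caskin2). In 11 of these 12, vehicle replicate 2 was the lowest vehicle array, so their changes rest on dim vehicle signals. In 6 of the 15 lower genes, and in 4 of the 12 named, vehicle replicate 2 was the highest vehicle array, as it was in 13.2% of all probe sets.

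Kif1b, a kinesin motor that carries mitochondria and synaptic vesicle precursors, had signals of 127.3, 102.2 and 185.4 on the BPA arrays and 40.2, 8.9 and 19.9 on the vehicle arrays. Its change was 2.80 (SE 0.56, adjusted p = 0.318) as deposited and 1.98 (SE 0.48, adjusted p = 0.635) after quantile normalization, and all 6 of its other probe sets had the same sign on both scalings. St3gal3, a sialyltransferase, had the smallest p of the 12 higher genes after quantile normalization, with 66.6, 48.7 and 268.4 under BPA and 4.4, 1.4 and 12.3 under vehicle (change 4.50, adjusted p = 0.318 as deposited, and 3.63, SE 0.72, adjusted p = 0.41 after quantile normalization). Without vehicle replicate 3 its adjusted p was 0.0213 as deposited. Its other probe set did not have the same sign on both scalings.

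Caskin2, a scaffold protein, and Gpr108 were the brightest of the 12 higher genes after BPA. Gpr108 had 323.2, 208.5 and 627.4 under BPA and 69.6, 10.5 and 21.9 under vehicle. Caskin2 had 241.8, 196.2 and 352.6 under BPA and 53.7, 12.2 and 64.1 under vehicle (change 2.88, adjusted p = 0.411 as deposited, and 2.10, SE 0.57, adjusted p = 0.671 after quantile normalization). Smurf1, a ubiquitin ligase of BMP and TGF-β signalling, had 321.3, 204.9 and 52 under BPA and 38.7, 2.2 and 17.1 under vehicle. The interferon receptor chain Ifnar2 had 145.8, 27.6 and 337.1 under BPA and 13.2, 1.4 and 6 under vehicle. Nob1, a nuclease of small ribosomal subunit maturation, was even across the BPA arrays, with 96.3, 119.5 and 105.7, against 38.8, 1.9 and 8.8 under vehicle. The neuronal calcium sensor Hpca had the largest change of the 12, with 31.7, 93.3 and 210.4 under BPA and 0.3, 1.8 and 1.1 under vehicle (6.67, adjusted p = 0.318 as deposited, and 5.80, SE 1.49, adjusted p = 0.662 after quantile normalization). The other 4 were Igsf6, Pwwp2a, Dand5, an antagonist of Nodal, and Zc2hc1a, with changes from 2.67 to 5.10 after quantile normalization.

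Among the 12 lower genes, Mbd1, a protein that binds methylated DNA, had signals of 316.8, 198.8 and 132.4 on the BPA arrays and 758.4, 613.4 and 656.7 on the vehicle arrays, with a change of −1.73 (SE 0.55, adjusted p = 0.521) as deposited and −2.05 (SE 0.47, adjusted p = 0.578) after quantile normalization. Of its 4 other probe sets, 1 had the same sign on both scalings. Xpo4, a nuclear transport receptor, had 284.7, 62.8 and 73.5 under BPA and 919.5, 567.4 and 663.2 under vehicle (change −2.68, adjusted p = 0.513 as deposited, and −3.01, SE 0.75, adjusted p = 0.662 after quantile normalization), and none of its 2 other probe sets had the same sign on both. Spidr, a scaffold of DNA repair by homologous recombination, had 131.3, 247.2 and 52.5 under BPA and 381.5, 537.1 and 328 under vehicle. Fam193a had 164.6, 70.8 and 22.9 under BPA and 275.9, 315.1 and 424 under vehicle, and 2 of its 3 other probe sets had the same sign. The changes of these 4 genes without vehicle replicate 2 lay between −2.90 and −1.57 on both scalings.

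Timp4, an inhibitor of matrix metalloproteinases, had 429.1, 279.2 and 194.1 under BPA and 478.6, 690.3 and 1326 under vehicle. Tmem97, the sigma-2 receptor, had 217.9, 399.1 and 308.1 under BPA and 1092.1, 3234.6 and 401.4 under vehicle, where vehicle replicate 3 was close to the highest BPA array. Ctsc, the protease cathepsin C, had 15.1, 20.4 and 7.3 under BPA and 54.6, 126.2 and 439 under vehicle. The other 5 were Mkln1, Glb1l2, Wee2, Riox2 and Prxl2a, with changes from −5.46 to −2.55 after quantile normalization. Wee2 rested on vehicle replicate 1, at 394.4 against 0.4 to 7.3 on the other 5 arrays.

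Across the 12 higher genes, 7 had further probe sets, and 10 of these 14 had the same sign on both scalings, of which 6 were of Kif1b. Across the 12 lower genes, 10 had further probe sets, and 9 of these 23 had the same sign on both. The 2 directions are not alike in background. Of all probe sets, 75.8% had a change above 0 as deposited and 49.5% after quantile normalization. Of the named genes, 10 higher and 8 lower were matched to a RefSeq promoter window, of which 6 and 4 held GGTCA and none held the palindrome. A gene was counted if any of its windows held a match, whereas the share of 40.5% above is of single windows. The share of all genes was not computed, so these counts show no excess.

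Nr4a3, an orphan nuclear receptor of the NR4A family and an immediate early gene, had the smallest adjusted p of all and was singled out after its values were seen, since its signals were below 100. It had 43.3, 60.2 and 25.9 under BPA and 3.1, 1 and 6.2 under vehicle, without overlap. Its change was 3.93 (SE 0.58, adjusted p = 0.222) as deposited and 3.25 (SE 0.45, adjusted p = 0.124) after quantile normalization. Leaving out vehicle replicate 3 gave 51 probe sets past an adjusted p of 0.05 as deposited and 10 after quantile normalization, and leaving out vehicle replicate 1 gave 21 and 5. As deposited, Nr4a3 was the only probe set shared by both omissions, and after quantile normalization none was shared. Of its 2 other probe sets, 1 had the same sign on both scalings.

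The comparison was set beside that of BPA with vehicle in ERα(−/−) epithelium, which asks whether a change depends on ERα. The difference between the genotypes passed an adjusted p of 0.05 for no probe set on either scaling (limma). At an unadjusted p under 0.05 it was above 0 for 1012 probe sets (2.24%) and below 0 for 936 (2.08%) after quantile normalization, and for 547 (1.21%) and 1017 (2.25%) as deposited. As deposited, Birc2 had a change of 1.85 in ERα(+/+) and 0.47 in ERα(−/−) epithelium, and the difference was 1.39 (unadjusted p = 0.107). After quantile normalization it had 1.15 in ERα(+/+) and −0.20 in ERα(−/−) epithelium, and the difference was 1.34 (unadjusted p = 0.0405, adjusted p = 1.0), so that the call and the sign in ERα(−/−) epithelium turned with the scaling. Wnt10b had −3.97 in ERα(+/+) and −0.82 in ERα(−/−) epithelium after quantile normalization, a difference of −3.16 (unadjusted p = 0.0106), and as deposited the difference was −3.43 (unadjusted p = 0.00776). In ERα(−/−) epithelium its signals were 23.5, 47 and 22 under BPA and 6.7, 43.8 and 63.6 under vehicle, so that those 3 BPA arrays lay within the vehicle range. After quantile normalization Tpx2 had 1.55 in ERα(+/+) and −0.34 in ERα(−/−) epithelium, a difference of 1.89 (unadjusted p = 0.0222), against 1.86 (unadjusted p = 0.0336) as deposited, where the ERα(−/−) change was 0.14. For Nrg1 the difference was 2.49 (unadjusted p = 0.00417) after quantile normalization and 2.32 (unadjusted p = 0.0138) as deposited. For Mbd1 it was −2.08 (unadjusted p = 0.00721) and −2.50 (unadjusted p = 0.00534). Gata3 had 2.15 in ERα(+/+) and −0.01 in ERα(−/−) epithelium after quantile normalization, and its difference did not pass on either scaling (2.16, unadjusted p = 0.0774, and 2.08, unadjusted p = 0.169, as deposited). Esr1 had 2.34 in ERα(+/+) and 2.79 in ERα(−/−) epithelium after quantile normalization. Since these genes were named for their change in ERα(+/+) epithelium, the differences are a description.

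EE2 was compared with the same vehicle arrays, so that the changes of BPA and EE2 share them and their likeness is no result. After quantile normalization Birc2 had 1.15 under BPA and 1.49 under EE2, Wnt10b had −3.97 and −3.38, and Gata3 had 2.15 and 1.68. As deposited the pairs were 1.85 and 1.86 for Birc2, −3.30 and −3.21 for Wnt10b, and 2.79 and 1.98 for Gata3. Wnt10b signals were 2, 5.7 and 2.5 on the EE2 arrays. Directly compared, BPA and EE2 arrays differed at an adjusted p under 0.05 for no probe set (limma), and at an unadjusted p under 0.05 for 1169 higher (2.59%) and 1122 lower (2.49%) after quantile normalization and for 2307 higher (5.12%) and 318 lower (0.705%) as deposited. Kif1b was 2.13 higher under BPA than under EE2 on the log2 scale (unadjusted p = 0.000459) and Ramp3 was lower, at −3.07 (unadjusted p = 0.00268), after quantile normalization. As deposited the differences were 2.76 (unadjusted p = 0.000155) and −2.53 (unadjusted p = 0.00567). Both genes were named for their change against vehicle on the same BPA arrays, so these differences are a description. For Birc2 the difference between BPA and EE2 was −0.34 (unadjusted p = 0.429) after quantile normalization and −0.01 (unadjusted p = 0.987) as deposited, which does not show that the exposures act alike.

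**Figure D5:**
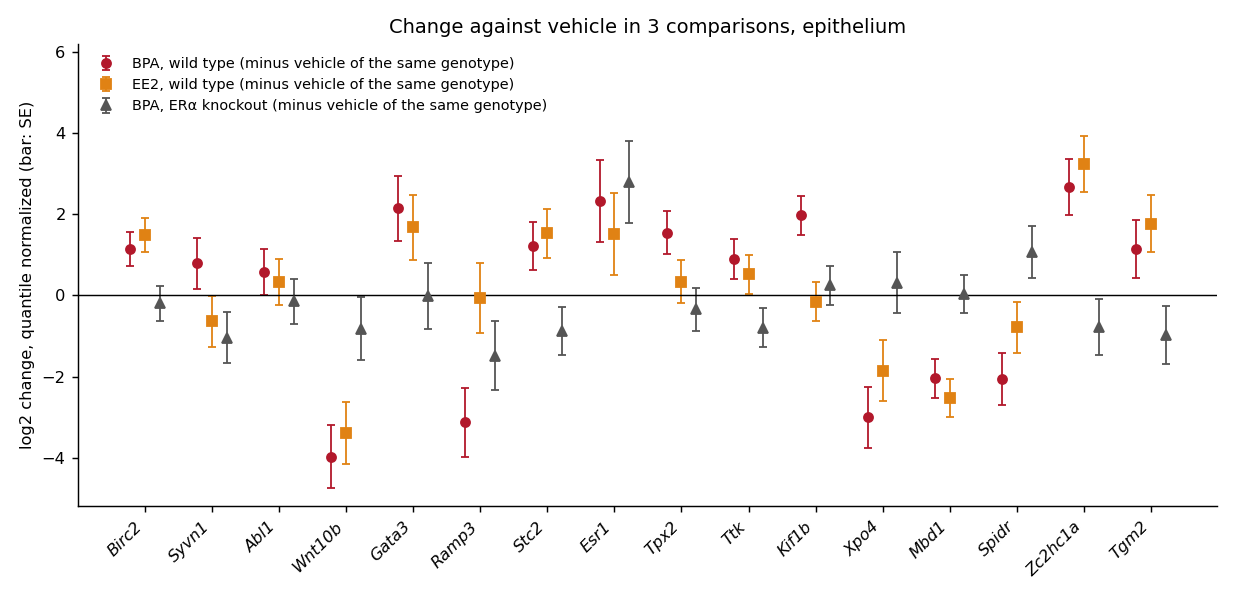
Log2 change against vehicle of the same genotype after quantile normalization (bar, SE) of 16 genes in epithelium, for BPA in ERα(+/+), EE2 in ERα(+/+) and BPA in ERα(−/−) mice; the BPA and EE2 changes in ERα(+/+) mice share their vehicle arrays. Wnt10b lies at −3.97 under BPA and −3.38 under EE2 in ERα(+/+) epithelium and at −0.82 under BPA in ERα(−/−) epithelium.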

How the data were processed

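Expression was measured on 36 arrays in 12 groups of 3, grouped by the sample labels, and 6 of the 18 epithelium arrays form the comparison. According to the methods, the authors processed the arrays by RMA in Partek and took logs. The deposited values are linear intensities, credited to GCOS in the submitters' processing notes, with 39 values of 0, and their scaling before deposit is not given in the sources used here. Log2 was taken of the intensities with a floor of 0.1, as deposited or after quantile normalization of the epithelium arrays. A linear model of the 18 epithelium arrays (6 groups) was fitted with limma 3.58.1 (R 4.3.3), with Benjamini-Hochberg adjustment over 45101 probe sets, so that all groups shared an estimate of the spread. The procedure was tested on simulated data. Array medians were compared by an exact permutation test over all 20 splits of the 6 arrays (Python 3.11.15, NumPy 2.4.6). Platform annotation gave 34958 probe sets a single symbol, 932 several and 9211 none. A gene in a list was represented by its brightest probe set. The members and the 26 lists (743 entries, 686 of them measured, 672 different genes) were chosen with earlier results of these data known. Beside the lists, the genes that the study discusses for the epithelium were named. Others, up to 12 in each direction, had an unadjusted p under 0.05, the same sign and no overlap on both scalings, and a mean signal of at least 100 in the higher group, ranked by the larger p. Members of lists were named by their smallest p. Alternatives were another offset, centring, a filter on dim probe sets, array weights, a trended prior, 6 or 36 arrays in the fit, the methods' t-test, a replicate block and each array left out.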

Additional observations from a re-analysis of the deposited data

How the results depend on the processing

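The count of 0 probe sets at an adjusted p under 0.05 (limma) held on both scalings under every alternative that kept all 6 arrays, and without BPA replicate 1 and vehicle replicate 3, an omission chosen after seeing the data, it was 1 on each scaling. Leaving out each array in turn gave 0 to 51 as deposited and 0 to 10 after quantile normalization, and the smallest adjusted p over all alternatives ranged from 0.00226 to 0.864 and from 0.00402 to 1.0. At an unadjusted p under 0.05, 3539 probe sets were higher and 267 lower as deposited. Centring each array on its median gave 1081 higher and 1496 lower, so that the share of higher ones among these moved to 41.9%, against 93.0% as deposited and 49.9% after quantile normalization. A mean signal of at least 50 gave 2138 higher and 53 lower, only the 6 arrays in the fit 1916 higher, array weights 404 lower, the methods' t-test 1169 higher and 169 lower, and that test with at least a 2-fold change 974 higher and 146 lower. Leaving out each array gave 1472 to 6518 higher and 246 to 553 lower. After quantile normalization (1343 higher, 1346 lower) a mean signal of at least 50 gave 851 higher and 386 lower, the 6 arrays alone 866 higher, the methods' t-test 562 higher and 663 lower, with at least a 2-fold change 445 higher and 530 lower, and leaving out each array 1035 to 2343 higher and 929 to 1992 lower. Leaving out each array, the difference of the BPA effect between genotypes had 419 to 1100 probe sets above 0 and 692 to 2505 below 0 as deposited, and 776 to 1463 and 770 to 1275 after quantile normalization. With 16 added, 207 probe sets were lower under BPA than under EE2 as deposited. The log2 difference of the array medians ranged from 0.175 to 1.08. The cause was not tested for these counts. The replicate numbers of the groups are shared in the labels but did not pair the arrays (residual correlations of the pairs −0.072, −0.044 and −0.104), and with a replicate block 3568 were higher and 280 lower as deposited and 1380 and 1385 after quantile normalization, with 0 past the adjusted threshold. ERα(+/+) and ERα(−/−) fetuses of an exposure could be littermates, but the labels do not link their numbers to litters, and the residuals of same-numbered arrays of an exposure correlated at −0.0296 to 0.0944 as deposited, over 0.1 in 0 of 9 pairs. With such pairs as a replicate block, chosen after seeing the data, the genotype difference was above 0 for 569 and below 0 for 1027 probe sets as deposited and for 1127 and 1070 after quantile normalization, with 0 past the adjusted threshold.

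Of the named genes, 4 receptors turned. Esrrg had −0.51 as deposited and −0.41 after quantile normalization with array weights, −0.11 with 16 added after quantile normalization, and without single arrays −1.23 to 2.49 as deposited and −1.36 to 1.81 after quantile normalization. Nr3c1 had −0.33 as deposited with centring, −0.06 after quantile normalization without BPA replicate 1 and vehicle replicate 3, and −0.30 to 0.41 after quantile normalization without single arrays. Thra had −0.48 as deposited with centring, −0.17 to 0.79 as deposited without single arrays, 0.0545 after quantile normalization with array weights, and −0.51 to 0.29 after quantile normalization without single arrays. Thrb had −0.11 as deposited and −0.54 after quantile normalization with array weights, and after quantile normalization −0.43 without BPA replicate 1 and vehicle replicate 3, and −0.52 to 1.04 without single arrays. The cause was not tested. Of 2122 values of the 72 named genes, 21 turned, and 4, of St3gal3 and Nr4a3, came past the adjusted threshold without vehicle replicate 1 or 3. The number of arrays and dim signals (Wnt10b, Ramp3, Bbc3, Egf, Nr4a3, and the vehicle arrays of the 12 higher genes named by rank) limit the precision.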

Other observations

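Markers of other cell types outside the stromal lists gave values that the comparison does not use. The epidermal keratins Krt1 and Krt10 and the epidermal gene Krtdap had signals of 6296.7, 5175.3 and 2416 on vehicle replicate 3. The muscle genes Myh3, Myh8 and Ttn had 681.1, 445.6 and 437.9 on vehicle replicate 1. Over the 18 markers of keratinised epidermis the median change was −1.32 after quantile normalization with all 6 arrays and −0.30 without BPA replicate 1 and vehicle replicate 3. Over the 23 skeletal muscle markers it was −1.73 with all 6 arrays.

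Among leukocyte markers, Aif1, a macrophage actin-binding protein, had 103.1, 81.5 and 12.6 under BPA and 1.9, 0.5 and 1.3 under vehicle, a change of 4.82 (SE 1.44, unadjusted p = 0.00444, adjusted p = 0.698, limma) after quantile normalization. Itgam, an integrin chain of myeloid cells, had 13.3, 7.2 and 18.8 under BPA and 4, 1.1 and 0.4 under vehicle. Summed over all 26 leukocyte markers, the signals were 10940, 5751 and 5343 under BPA and 5745, 1375 and 10770 under vehicle, and the groups overlapped. At an unadjusted p under 0.05 (limma), 2 of the 26 were higher and none lower after quantile normalization (2.69% and 2.85% of all genes). On that scaling 19 had a positive change and 7 a negative one (median 0.28). Without vehicle replicate 2 the median was −0.12 as deposited and −0.20 after quantile normalization.

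The probe sets past an adjusted p of 0.05 without vehicle replicate 3 after quantile normalization included Fxyd6, Nr4a3, Zfp667, Cthrc1, Dnaja2, Ptpn6 and Coq10b, and those without vehicle replicate 1 were of Rps18, Rcbtb2, Faxc and Bri3bp (higher) and Diras2 (lower). The 2 sets shared no probe set, and these genes were chosen after their values were seen. The ratio of the 3′ to the 5′ probe sets of Gapdh, a measure of RNA integrity and amplification, was 5.21, 7.89 and 8.77 on the BPA arrays and 8.66, 11.2 and 10.3 on the vehicle arrays (exact permutation test, two-sided p = 0.2, smallest possible 0.1). The same ratio of β-actin went the other way. It was 1.11, 1.03 and 1.08 on the BPA arrays and 0.78, 0.99 and 0.97 on the vehicle arrays. The part of either ratio in the results was not tested.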
